A study of Mus musculus with 9 samples.

Results

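The family of enzymes described here breaks down glycogen and glucose, and was chosen by name as 10 genes: the liver glycogen phosphorylase Pygl, the hexokinases Hk1 and Hk2, the phosphofructokinase Pfkl, the aldolase Aldoa, the phosphoglycerate kinase Pgk1, the phosphoglycerate mutase Pgam1, the enolase Eno1 and the lactate dehydrogenase genes Ldha and Ldhb. Of these 10 genes, 6 had a probe named in the platform annotation used here: Pygl, Hk1, Pfkl, Aldoa, Pgk1 and Pgam1. In all, 9991 genes had a named probe. Hk2, Eno1, Ldha and Ldhb had none in that annotation and were not analysed here. Expression was measured with Illumina MouseWG-6 v2 arrays in RNA from the epididymal fat pad, a visceral white adipose tissue (WAT), of C57BL/6J males. The mice arrived at 4 weeks of age, were acclimated for 1 week and were then fed for 16 weeks. According to the study's methods, all mice were fasted before the tissues were taken. The LU group received the high-fat diet with 0.005% (w/w) luteolin, a plant flavonoid, the HFD group received the high-fat diet (20% fat, 1% cholesterol) alone, and the ND group received a normal diet. Each group is represented by 3 arrays. The labels and the study's methods give different numbers of mice for the LU and HFD groups, and the methods describe the RNA as pooled sets, so that a p-value here covers how the arrays of a group differ and not how single mice differ.

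Glycogen is a branched store of glucose. Glycogen phosphorylase, switched on by phosphorylase kinase, releases its glucose units as glucose 1-phosphate, which phosphoglucomutase converts to glucose 6-phosphate. Glucose that enters a cell is phosphorylated by a hexokinase, phosphofructokinase commits the sugar to glycolysis, aldolase splits it, and the following enzymes convert the products to pyruvate and lactate while ATP is formed. In WAT the pathway supplies the glycerol backbone of triglyceride and the carbon for fatty acid synthesis, and the immune cells that enter the fat of obese animals use it as well.

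Of 8 named probes of the family, 7 passed the detection filter (a detection p under 0.05 on at least 3 of the 9 arrays), and the brightest passing probe was read for each gene. Values are quantile-normalised signals on the log2 scale, on which a difference of 1 is a doubling of the signal. Tests across probes were limma tests over 9 arrays with Benjamini-Hochberg adjustment over 20558 probes, and a gene was called where the adjusted p was under 0.05. Between 42.21% and 43.84% of the probes were detected on each array, and replicate arrays correlated at 0.9942 to 0.9984. The median signal before normalisation was 193.5 to 197.3 in LU, 209.4 to 215.8 in HFD and 193.7 to 206.9 in ND. The platform annotation used here names only probes that are also in the authors' own normalised table. The selection of that table is not given in the sources used here. Probes with a name passed the threshold more often than those without: 37.3% against 14% for LU against HFD, 51.7% against 15.9% for HFD against ND and 39.9% against 14.8% for LU against ND. Having a named probe is therefore not independent of the response to diet.

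Against this background, 1 of the 6 measured genes, Pygl, was higher in LU than in HFD and the other 5 did not pass the test, where 19.7% of all 8699 named genes were higher, 18.2% were lower and 28% of all probes passed. For HFD against ND, Pgk1 and Pgam1 were higher and Pygl was lower, where 25.2% of the genes were higher, 27.7% were lower and 37.3% of the probes passed. For LU against ND, Aldoa and Pgam1 were higher and Pygl was lower, where 21.1% of the genes were higher, 18.6% were lower and 29.9% of the probes passed. The family's median log2 fold change was 0.00 for LU against HFD, 0.11 for HFD against ND and 0.16 for LU against ND, beside medians of 0.02, -0.03 and 0.01 over all genes. With 1, 3 and 3 of 6 genes called, the family did not stand apart from the background in number. Each group's arrays enter 2 of the 3 comparisons, which are therefore not independent of each other. With arrays scaled by their medians in place of quantile normalisation, the split of all genes for LU against HFD was 1953 higher to 1108 lower, against 1714 to 1587 in the analysis reported.

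**Figure D1:**
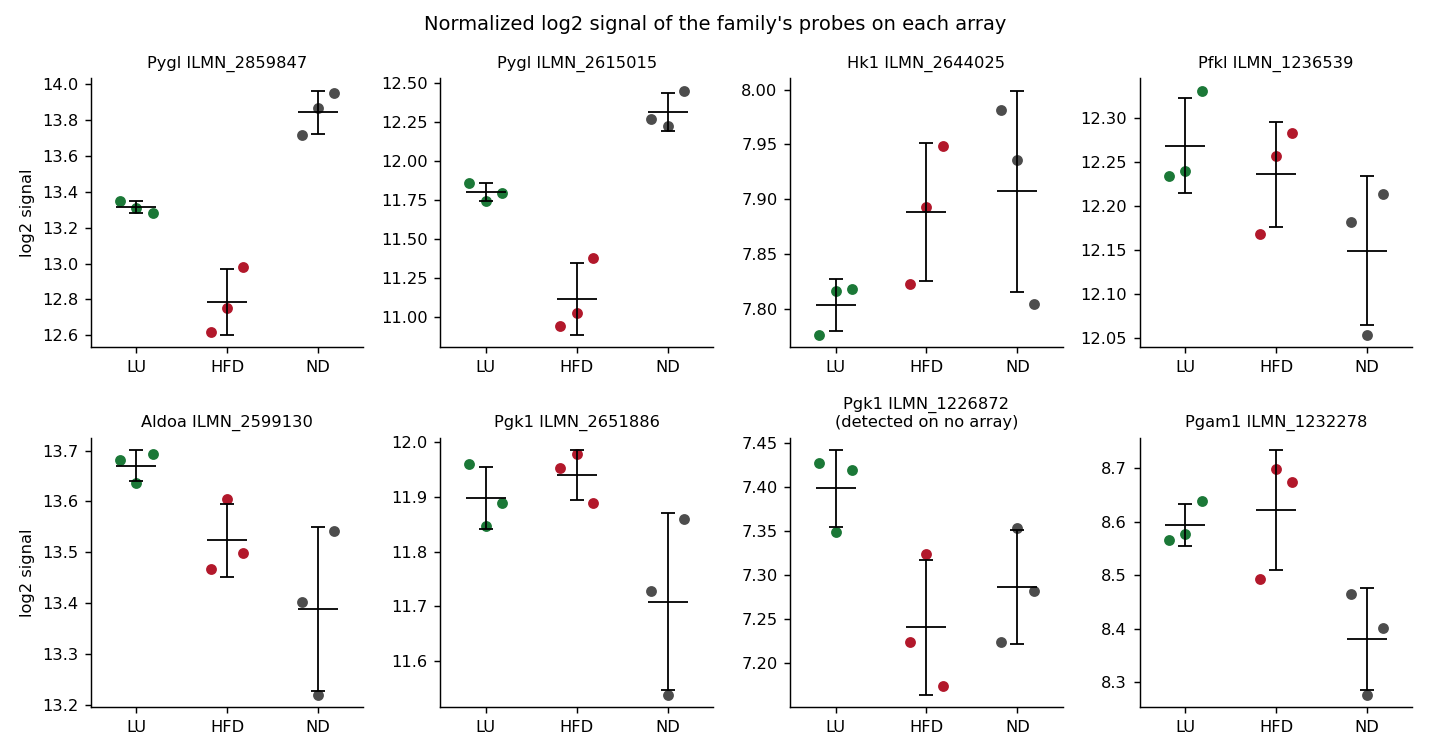
Normalised log2 signal of the 8 named probes of the family on each of the 9 arrays, with LU, HFD and ND from left to right. Points are arrays, the long bar is the group mean and the whiskers are 1 SD (n = 3). The vertical scale differs between panels: the 2 Pygl panels span more than 1 log2 unit and show 3 separate groups, while each other panel spans less than 0.5 log2 units.

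Pygl, which encodes the phosphorylase isoform best known from liver, had the clearest response of the family. The signal of its brighter probe, ILMN_2859847, was 13.35, 13.31 and 13.28 on the LU arrays, 12.62, 12.75 and 12.98 on the HFD arrays and 13.71, 13.87 and 13.95 on the ND arrays (log2 scale). The LU arrays all lay above the HFD arrays and below the ND arrays, with no overlap between any of the 3 groups. Before normalisation the same probe read 10186, 10576 and 9086 in LU, 6368, 7498 and 7973 in HFD and 13204, 14809 and 15892 in ND, so the order of the groups was already present in the signals as scanned.

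Pygl fell by 1.06 on the log2 scale in HFD compared with ND (SE 0.0863, 0.48-fold, limma adjusted p = 1.32e-06), and was 0.53 higher in LU than in HFD (SE 0.0863, 1.44-fold, adjusted p = 0.000854). LU was lower than ND (-0.53, 0.693-fold, adjusted p = 0.000775). In whole tissue, fewer cells of a type and less RNA per cell cannot be told apart. Group means were 13.31 ± 0.03 in LU, 12.78 ± 0.18 in HFD and 13.84 ± 0.12 in ND (SD, n = 3), and the spread was smallest among the LU arrays. Of all named genes, 4.56% had a larger absolute change than Pygl for LU against HFD, 2.75% for HFD against ND and 6.55% for LU against ND. The rank product, the test that the study's methods name for the arrays, also called Pygl in each comparison, with false discovery rates of 0.0185, 0.00114 and 0.0421 for LU against HFD, HFD against ND and LU against ND, and no other gene of the family in any.

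The second Pygl probe, ILMN_2615015, gave 11.86, 11.74 and 11.79 in LU, 10.94, 11.03 and 11.38 in HFD and 12.26, 12.22 and 12.45 in ND. Its groups were separated in the same order, with log2 fold changes of 0.68 for LU against HFD (adjusted p = 0.000407), -1.20 for HFD against ND (adjusted p = 1.52e-06) and -0.51 for LU against ND (adjusted p = 0.00233). The largest difference between the 2 probes' fold changes was 0.154. On both probes HFD replicate 3 was the highest of the HFD arrays, and the deviations of the arrays from their group means correlated between the probes at 0.877 (9 arrays, the same RNA).

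**Figure D2:**
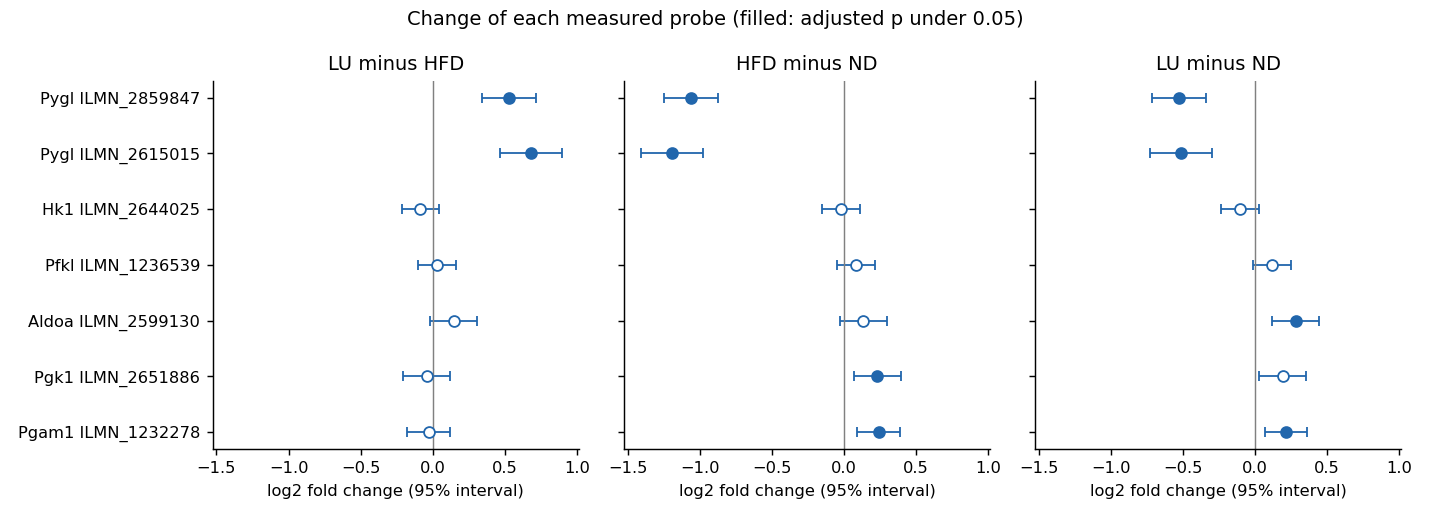
Log2 fold change of the 7 measured probes of the family for LU minus HFD, HFD minus ND and LU minus ND, from left to right. Points are limma estimates over 9 arrays, whiskers are 95% intervals, and filled points have an adjusted p under 0.05. Both Pygl probes lie right of zero in the left panel and left of zero in the other panels, while each other gene lies within 0.3 of zero.

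Other enzymes of glycogen breakdown were examined from a list that does not include Pygl. Of 8 measured genes of this list, 5 rose in LU compared with HFD and the other 3 did not pass, with a median log2 fold change of 0.19 beside 0.02 over all genes, of which 19.7% were higher. For HFD against ND, 4 fell and the other 4 did not pass, with a median of -0.24 beside -0.03 over all genes, of which 27.7% were lower. For LU against ND, 1 rose (Gaa, the lysosomal acid glucosidase that digests glycogen) and 4 fell, with a median of -0.13 beside 0.01. Of all genes, 21.1% were higher and 18.6% lower in LU than in ND.

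Pygb, which encodes the brain isoform of glycogen phosphorylase, had 12.08, 11.99 and 12.04 in LU, 11.49, 11.52 and 11.65 in HFD and 12.36, 12.38 and 12.46 in ND. Its groups had the order seen for Pygl, without overlap. Pygb fell by 0.85 on the log2 scale in HFD compared with ND (SE 0.0586, adjusted p = 3.4e-07), was 0.48 higher in LU than in HFD (SE 0.0586, adjusted p = 0.00014) and was 0.36 below ND in LU (adjusted p = 0.000715). The change of Pygl minus that of Pygb within an array was 0.05 for LU against HFD (exact two-sided permutation p = 0.6), -0.21 for HFD against ND (exact p = 0.1) and -0.17 for LU against ND (exact p = 0.1), where 0.1 is the smallest p that 3 arrays against 3 allow.

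Phkg1, the catalytic subunit of phosphorylase kinase best known from muscle, had 9.04, 8.90 and 8.96 in LU, 8.35, 8.39 and 8.77 in HFD and 9.21, 9.32 and 9.48 in ND. It fell by 0.83 in HFD compared with ND (adjusted p = 4.57e-05) and was 0.46 higher in LU than in HFD (adjusted p = 0.00564), and with neqc background correction (a background estimate inferred here from the detection p-values) these values were -1.27 and 0.76. As for Pygl, HFD replicate 3 was the highest HFD array. Phkb, the regulatory beta subunit, fell by 0.32 in HFD compared with ND (adjusted p = 0.00134), and Phka2, the alpha subunit best known from liver, was 0.29 higher in LU than in HFD (adjusted p = 0.00998). Pgm1, a phosphoglucomutase, fell by 0.30 in HFD compared with ND (adjusted p = 0.0011). The calls of these 5 genes just given held under each alternative of the limma fit. Under at least 1 alternative, the LU against ND calls of Phkg1, Phkb, Pgm1 and Gaa and the LU against HFD calls of Phkg2 and Gaa were lost: for example, Phkg1 against ND had an adjusted p of 0.0708 without LU replicate 2 and Gaa against HFD one of 0.0806 without LU replicate 1.

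**Figure D3:**
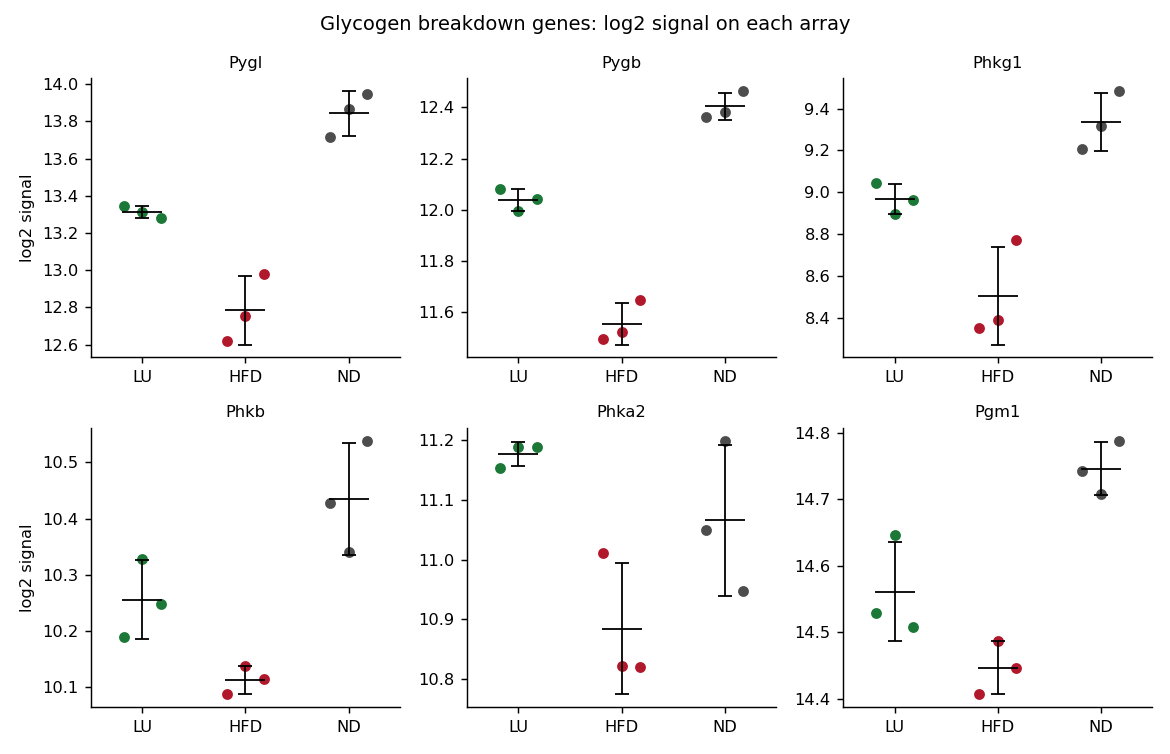
Normalised log2 signal of Pygl and of 5 other genes of glycogen breakdown on each array, with LU, HFD and ND from left to right. Points are arrays, the long bar is the mean and the whiskers are 1 SD (n = 3), and vertical scales differ. In every panel except that of Phka2 the LU points lie between those of HFD and ND without overlap. Gaa, Phkg2 and Pgm3 were also measured but are not shown, and their LU means did not lie between those of HFD and ND.

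The stretch upstream of the annotated start of Pygl and Pygb is shown because both phosphorylase genes had the same order of groups. The sequences are from RefSeq (GRCm38.p6), each with 250 bases before the start, read 5′ to 3′ in the direction of the gene. Pygl lies on the minus strand (chr12:70227684-70227933) and Pygb on the plus strand (chr2:150786546-150786795). Capitals mark ACGTG or GCGTG on either strand (CACGT or CACGC when read on the reverse strand), the core letters of the hypoxia response element.
Pygl: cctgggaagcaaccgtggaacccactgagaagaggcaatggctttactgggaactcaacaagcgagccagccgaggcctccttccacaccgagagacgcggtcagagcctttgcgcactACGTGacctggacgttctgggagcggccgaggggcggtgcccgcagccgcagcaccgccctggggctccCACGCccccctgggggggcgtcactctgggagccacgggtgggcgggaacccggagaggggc
Pygb: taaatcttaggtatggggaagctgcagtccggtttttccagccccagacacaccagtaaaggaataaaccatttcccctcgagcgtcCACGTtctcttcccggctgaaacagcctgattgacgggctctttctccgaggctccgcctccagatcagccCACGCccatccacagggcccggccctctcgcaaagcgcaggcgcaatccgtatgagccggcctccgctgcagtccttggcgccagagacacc
Each of these windows holds 1 match of ACGTG and 1 of GCGTG, and neither holds the E box CACGTG. Of 32851 windows of the same length, 16.6% hold ACGTG, 28.2% hold GCGTG, 38.6% hold either and 6.02% hold CACGTG. The GC box GGGCGG, searched on both strands, has 3 matches in the Pygl window and 0 in the Pygb window, and 32.7% of the windows hold it.

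At the entry of glycolysis, Hk1, the hexokinase found in most tissues, was close to the background. Its signal was 7.78, 7.82 and 7.82 in LU, 7.82, 7.89 and 7.95 in HFD and 7.98, 7.94 and 7.80 in ND, and it was detected on 2 LU, 3 HFD and 3 ND arrays. The log2 fold changes were -0.08 for LU against HFD, -0.02 for HFD against ND and -0.10 for LU against ND (adjusted p = 0.323, 0.834 and 0.216), with 95% intervals of -0.21 to 0.05, -0.15 to 0.11 and -0.23 to 0.03. The LU arrays were all below the HFD arrays, but the difference did not pass the test.

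Hk3, a hexokinase of myeloid cells in the list of other glycolysis enzymes, had 10.09, 9.85 and 10.01 in LU, 10.82, 10.76 and 10.34 in HFD and 8.59, 8.60 and 8.53 in ND. It was 2.07 higher in HFD than in ND (adjusted p = 3.13e-08), fell by 0.66 in LU compared with HFD (adjusted p = 0.000783) and stayed 1.41 above ND in LU (adjusted p = 2.58e-06). The macrophage markers moved the same way: of 18 measured, 16 were higher and 1 lower in HFD than in ND. In that comparison 25.2% of all genes were higher and 27.7% lower. In LU compared with HFD, 18 of the markers were lower, beside 18.2% of all genes. The summed normalised signal of the macrophage markers was 78888 to 86897 in LU, 115741 to 127843 in HFD and 55809 to 63829 in ND. HFD replicate 3, the lowest HFD array for Hk3, also had the lowest macrophage sum of the HFD arrays. The part of macrophages in the level of Hk3 was not tested, and more macrophages cannot be told apart from more Hk3 RNA per cell. The change of Hk1 minus that of Hk3 within an array was 0.57 for LU against HFD, -2.09 for HFD against ND and -1.51 for LU against ND (exact permutation p = 0.1 each, the smallest possible).

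Pfkl, the phosphofructokinase best known from liver, had 12.23, 12.24 and 12.33 in LU, 12.17, 12.26 and 12.28 in HFD and 12.18, 12.05 and 12.21 in ND. The LU arrays lay above the ND arrays, but no comparison passed: the log2 fold changes were 0.03 for LU against HFD (adjusted p = 0.73, 95% interval -0.10 to 0.16), 0.09 for HFD against ND (adjusted p = 0.295, interval -0.04 to 0.22) and 0.12 for LU against ND (adjusted p = 0.161, interval -0.01 to 0.25). Of the other phosphofructokinases, Pfkp, the platelet isoform, was 0.62 higher in HFD than in ND (adjusted p = 0.000788, or 0.40 with the mean of its probes) and fell by 0.41 in LU compared with HFD (adjusted p = 0.0152). This second call of Pfkp was lost without any 1 of 4 arrays, for example with an adjusted p of 0.0716 without LU replicate 1. Pfkm, the muscle isoform, had changes of 0.17, -0.09 and 0.09 for LU against HFD, HFD against ND and LU against ND, none past the threshold. The change of Pfkl minus that of Pfkp was 0.44 for LU against HFD and -0.53 for HFD against ND (exact permutation p = 0.1 each) and -0.09 for LU against ND (exact p = 0.5). Over the 9 such comparisons between enzymes of the same step, the smallest adjusted p was 0.129. Since the exact p cannot go below 0.1, no adjusted p could be under 0.05, and these tests cannot decide whether 2 enzymes changed unequally.

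Aldoa, the aldolase of muscle and most other tissues, had 13.68, 13.64 and 13.69 in LU, 13.47, 13.60 and 13.50 in HFD and 13.40, 13.22 and 13.54 in ND. The LU arrays lay above all HFD and ND arrays, while HFD and ND overlapped. Aldoa was 0.28 higher in LU than in ND (SE 0.0752, 1.22-fold, adjusted p = 0.0136). Its changes for LU against HFD (0.15, adjusted p = 0.167) and HFD against ND (0.14, adjusted p = 0.181) did not pass. Without LU replicate 3 the first call was lost (0.27, adjusted p = 0.0518, over a range of 0.00296 to 0.0518 for the alternatives), and without ND replicate 3 the HFD against ND change passed (0.21, adjusted p = 0.033).

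The next enzymes, Tpi1 (triosephosphate isomerase) and Gapdh, had a similar order of group means. Tpi1 had 14.24, 14.19 and 14.18 in LU, 13.94, 14.03 and 13.95 in HFD and 13.86, 13.28 and 13.84 in ND. It was 0.54 higher in LU than in ND (adjusted p = 0.00496), which was 0.35 without ND replicate 2 (adjusted p = 0.000958). Its changes of 0.23 for LU against HFD and 0.32 for HFD against ND did not pass (adjusted p = 0.181 and 0.0539). Gapdh, named here because the study's methods use it as the reference gene for RT-qPCR, had 13.66, 13.70 and 13.68 in LU, 13.47, 13.61 and 13.55 in HFD and 13.51, 13.32 and 13.56 in ND. It was 0.21 higher in LU than in ND (adjusted p = 0.0301), a call that was lost with each of 6 alternatives, with a change of 0.14 and an adjusted p of 0.101 without ND replicate 2. Its changes for LU against HFD (0.13, adjusted p = 0.16) and HFD against ND (0.08, adjusted p = 0.387) did not pass.

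Pgk1, the first enzyme of glycolysis that forms ATP, had 11.96, 11.85 and 11.89 in LU, 11.95, 11.98 and 11.89 in HFD and 11.73, 11.54 and 11.86 in ND. The HFD arrays lay above the ND arrays and overlapped with the LU arrays. Pgk1 was 0.23 higher in HFD than in ND (SE 0.0746, 1.17-fold, adjusted p = 0.027), and its changes of 0.19 for LU against ND (adjusted p = 0.0722) and -0.04 for LU against HFD (adjusted p = 0.716, 95% interval -0.20 to 0.12) did not pass. The HFD against ND call was lost under 6 of 15 alternatives, among them without ND replicate 2 (0.15, adjusted p = 0.0923), without HFD replicate 1 (0.0688) or 2 (0.0875) and with median scaling (0.19, adjusted p = 0.112), and the LU against ND change passed without ND replicate 3 (0.27, adjusted p = 0.0147). The second Pgk1 probe, ILMN_1226872, was not detected on any array and was not tested.

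Pgam1, the mutase of most tissues outside muscle, had 8.57, 8.58 and 8.64 in LU, 8.49, 8.70 and 8.67 in HFD and 8.46, 8.28 and 8.40 in ND. Every LU and HFD array lay above every ND array, and LU and HFD overlapped. Pgam1 was 0.24 higher in HFD than in ND (SE 0.0686, 1.18-fold, adjusted p = 0.0145) and 0.21 higher in LU than in ND (1.16-fold, adjusted p = 0.033), with a change of -0.03 for LU against HFD (adjusted p = 0.801, 95% interval -0.18 to 0.12). With neqc background correction the changes against ND were 0.43 in HFD and 0.39 in LU (adjusted p = 0.0197 and 0.0387). Leaving out ND replicate 2, HFD replicate 2 or HFD replicate 3 ended the HFD against ND call (adjusted p = 0.0512, 0.0667 and 0.0532). The LU against ND call was lost without ND replicate 2 or 3 or any 1 LU array (adjusted p = 0.0501 to 0.113). ND replicate 2 was the lowest ND array for Pfkl, Aldoa, Tpi1, Gapdh, Pgk1 and Pgam1 alike. For Pygl it lay between the other ND arrays on the brighter probe and was the lowest ND array on the second probe. Several of these enzymes have processed pseudogenes of near-identical sequence, and binding of such transcripts to the probes was not tested.

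The windows upstream of Pgk1 (chrX:106186850-106187099, plus strand) and Pgam1 (chr19:41911621-41911870, plus strand) are shown for the pair that was higher in HFD than in ND, as 250 bases from RefSeq (GRCm38.p6) with ACGTG and GCGTG on either strand in capitals.
Pgk1: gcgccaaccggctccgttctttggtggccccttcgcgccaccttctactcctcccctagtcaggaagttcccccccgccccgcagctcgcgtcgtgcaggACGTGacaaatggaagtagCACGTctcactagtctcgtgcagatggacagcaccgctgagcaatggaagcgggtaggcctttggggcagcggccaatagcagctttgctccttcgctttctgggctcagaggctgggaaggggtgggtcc
Pgam1: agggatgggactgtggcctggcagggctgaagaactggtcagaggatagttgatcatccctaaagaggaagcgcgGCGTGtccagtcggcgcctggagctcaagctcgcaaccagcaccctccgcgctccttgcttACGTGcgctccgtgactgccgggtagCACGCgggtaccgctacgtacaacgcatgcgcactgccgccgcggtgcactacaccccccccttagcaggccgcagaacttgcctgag
The Pgk1 window holds 2 matches of ACGTG, and the Pgam1 window holds 1 of ACGTG and 2 of GCGTG. As for the phosphorylase windows, 38.6% of all windows hold either form, and a match describes the letters and not the binding of a factor.

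Among the 10 measured other enzymes of glycolysis, 2 rose and 2 fell in LU compared with HFD, 4 rose and 3 fell in HFD compared with ND, and 5 rose and 1 fell in LU compared with ND. In these comparisons 19.7%, 25.2% and 21.1% of all genes were higher and 18.2%, 27.7% and 18.6% lower. The list's median log2 fold changes were 0.05, 0.20 and 0.21 beside 0.02, -0.03 and 0.01 over all genes. The enolases differed in direction: Eno2, the neuronal isoform, was 0.55 higher in HFD than in ND (adjusted p = 0.000284), and 0.39 higher in LU than in ND (adjusted p = 0.00489, or 0.60 with neqc), while Eno3, the muscle isoform, fell by 0.44 (adjusted p = 0.00354) and was 0.49 higher in LU than in HFD (adjusted p = 0.00309). Pkm, pyruvate kinase of most tissues, was 0.46 higher in HFD than in ND (adjusted p = 0.00032), and its change of -0.19 for LU against HFD did not pass (adjusted p = 0.0736). Ldhd, the D-lactate dehydrogenase, fell by 0.38 in HFD compared with ND (adjusted p = 0.000106) and was 0.26 higher in LU than in HFD (adjusted p = 0.0036, or 0.39 with neqc). Bpgm, which makes the 2,3-bisphosphoglycerate of red cells, was detected on the ND arrays alone and was at least 1.05-fold brighter there than in LU or HFD (adjusted p = 0.0112 and 0.0186). The bound sets the ND mean against the lowest signal of a detected probe on each dim array, or the probe's own signal where that was higher. Bpgm passed the detection filter through the ND arrays alone, so its p-values against ND are not independent of that filter. The same limit applies to its place among the genes counted as lower than ND. The Bpgm calls were lost without LU replicate 1 for LU against ND (adjusted p = 0.0571) and without 1 of 3 arrays for HFD against ND, for example HFD replicate 1 (adjusted p = 0.0685). With neqc its log2 fold changes were -0.61 and -0.53, in place of -0.21 and -0.18. The 3 measured red cell markers had a summed signal of 25803 to 27448 in LU, 37395 to 62004 in HFD and 67057 to 72957 in ND, and their part in the Bpgm signal was not tested.

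**Figure D4:**
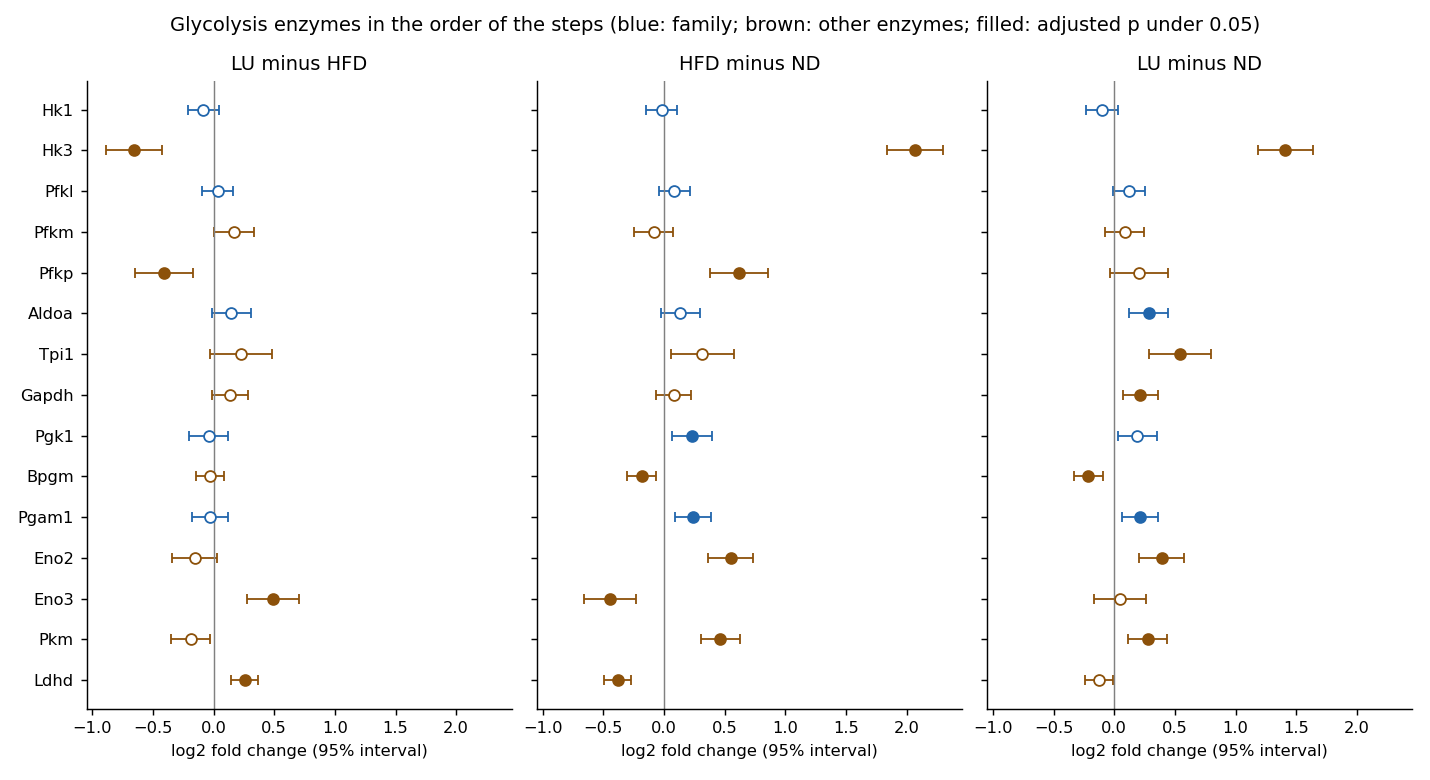
Log2 fold changes of 15 measured glycolysis enzymes in the order of the steps, from hexokinases at the top to Ldhd at the bottom, for LU minus HFD, HFD minus ND and LU minus ND from left to right. Points are limma estimates over 9 arrays, whiskers are 95% intervals, filled points have an adjusted p under 0.05, blue marks the family and brown the other enzymes. Hk3 lies farthest from zero in each panel, and the 5 blue genes lie within 0.3 of zero.

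Regulators and transporters around the pathway also changed. Mlxipl, which encodes the glucose-responsive transcription factor ChREBP, was 0.63 higher in LU than in HFD (adjusted p = 0.00013) and fell by 0.43 in HFD compared with ND (adjusted p = 0.000663, or -0.26 with the mean of its probes). Pfkfb4, an enzyme that sets the level of the phosphofructokinase activator fructose 2,6-bisphosphate, was 1.10 higher in HFD than in ND (adjusted p = 7.86e-05) and 0.99 higher in LU than in ND (adjusted p = 0.000431), with a change of -0.12 for LU against HFD (adjusted p = 0.595). Hif1a, the oxygen-regulated subunit of the hypoxia-inducible factor, fell by 0.40 in LU compared with HFD (adjusted p = 0.00217) and by 0.24 in LU compared with ND (adjusted p = 0.0272, but 0.0845 without ND replicate 2). Of the enzymes related to Pfkfb4, Pfkfb3 fell by 0.28 in HFD compared with ND (adjusted p = 0.00975, or -0.62 with neqc) and Pfkfb2 was 0.30 higher in LU than in HFD (adjusted p = 0.0114, but 0.0572 without LU replicate 2). In all, of 5 measured regulators, 2 rose and 1 fell in LU compared with HFD, 1 rose and 2 fell in HFD compared with ND, and 1 rose and 1 fell in LU compared with ND. The shares of all genes were 19.7%, 25.2% and 21.1% higher and 18.2%, 27.7% and 18.6% lower.

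Of 4 measured glucose transporters, 3 rose and 1 fell in LU compared with HFD, where 19.7% of all genes were higher and 18.2% lower, but 3 of these 4 calls were lost under at least 1 alternative. Slc2a8 (GLUT8) alone kept its call under each alternative of the limma fit (0.21, adjusted p = 0.00999). Slc2a3 (GLUT3) was 0.33 higher (adjusted p = 0.0336) and lost its call under 6 of 15 alternatives, with an adjusted p of 0.135 without HFD replicate 2. Slc2a1 (GLUT1) fell by 0.24 (adjusted p = 0.00478) and lost its call with median scaling (adjusted p = 0.0558). Slc2a4, the insulin-responsive transporter GLUT4, was 0.29 higher (adjusted p = 0.0185) and lost its call without HFD replicate 1 (adjusted p = 0.0792) or LU replicate 2 (adjusted p = 0.0921).

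For HFD against ND, 1 of these transporters rose and 3 fell, where 25.2% of all genes were higher and 27.7% lower. Slc2a3 fell by 1.23 (adjusted p = 1.92e-06), Slc2a8 fell by 0.24 (adjusted p = 0.00294) and Slc2a1 was 0.22 higher (adjusted p = 0.00488). The fall of Slc2a4 by 0.26 (adjusted p = 0.0269) was lost under 4 of 15 alternatives, with an adjusted p of 0.115 without HFD replicate 1. In LU compared with ND, Slc2a3 fell by 0.90 (adjusted p = 7.26e-05) and the other 3 did not pass.

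On the side of glycogen synthesis, 12 genes were measured, of which 2 rose and 1 fell in LU compared with HFD, 2 rose and 5 fell in HFD compared with ND, and 3 rose and 3 fell in LU compared with ND. Of all genes, 19.7%, 25.2% and 21.1% were higher and 18.2%, 27.7% and 18.6% lower in these comparisons. Ppp1r3c, the subunit that brings protein phosphatase 1 to glycogen, fell by 0.77 in HFD compared with ND (adjusted p = 3.53e-06) and by 0.66 in LU compared with ND (adjusted p = 4e-05), with a change of 0.11 for LU against HFD (adjusted p = 0.272). Ppp1r3d, another such subunit, was instead 0.28 higher in HFD than in ND (adjusted p = 0.0126, but 0.0507 without HFD replicate 3) and 0.35 higher in LU than in ND (adjusted p = 0.0052). Ppp1r3b, which belongs to the same group, was 0.30 higher in LU than in ND (adjusted p = 0.0436), a call lost under 7 of 15 alternatives, with an adjusted p of 0.187 for the mean of its probes.

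Gys2, a glycogen synthase best known from liver, was 0.34 higher in HFD than in ND (adjusted p = 0.0157) and fell by 0.31 in LU compared with HFD (adjusted p = 0.0329). Without HFD replicate 2 the values were 0.21 (adjusted p = 0.0573) and -0.18 (adjusted p = 0.122), and with neqc they were 0.74 and -0.65. Epm2a, the glycogen phosphatase laforin, was 0.21 higher in LU than in HFD (adjusted p = 0.0135, or 0.57 with neqc) and Ppp1r3f was 0.17 higher (adjusted p = 0.038). Each of the 3 calls of the list for LU against HFD was lost under at least 1 alternative, with an adjusted p of 0.0589 for Epm2a without LU replicate 3 and of 0.144 for Ppp1r3f without LU replicate 1.

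Of 6 measured genes of the reverse steps and of glycerol 3-phosphate, 3 rose in LU compared with HFD and the others did not pass, 1 rose and 3 fell in HFD compared with ND, and 1 rose and 2 fell in LU compared with ND. Over all genes the shares were 19.7%, 25.2% and 21.1% higher and 18.2%, 27.7% and 18.6% lower. Pck1, which directs carbon from oxaloacetate to glycerol 3-phosphate in fat, fell by 1.25 in HFD compared with ND (adjusted p = 1.47e-06) and was 0.72 higher in LU than in HFD (adjusted p = 0.000382). Pcx, pyruvate carboxylase, fell by 0.58 in HFD compared with ND (adjusted p = 0.000141) and was 0.40 higher in LU than in HFD (adjusted p = 0.00373). The other genes named had other patterns. Fbp2, the fructose bisphosphatase of muscle, was 0.46 higher in LU than in HFD (adjusted p = 0.00213) and 0.72 higher in LU than in ND (adjusted p = 9.87e-05), and was also 0.26 higher in HFD than in ND (adjusted p = 0.0333), a call lost under 6 of 15 alternatives, with an adjusted p of 0.116 without ND replicate 3. Gpd2, the mitochondrial glycerol 3-phosphate dehydrogenase, fell by 0.92 in HFD compared with ND (adjusted p = 1.28e-06) and by 0.76 in LU compared with ND (adjusted p = 2.17e-05, or -0.45 with the mean of its probes), and its change of 0.17 for LU against HFD did not pass (adjusted p = 0.121).

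In the pentose phosphate branch, 4 of 5 measured genes rose in LU compared with HFD, where 19.7% of all genes were higher. G6pdx and Pgd, which are also on this list, had no named probe. Only H6pd kept its call under each alternative of the limma fit (0.29, adjusted p = 0.0064). Tkt, transketolase, was 0.30 higher (adjusted p = 0.0177) and lost its call under 5 of 15 alternatives, with 0.18 and an adjusted p of 0.118 for the mean of its probes. Taldo1, transaldolase, was 0.22 higher (adjusted p = 0.0167) and lost its call under 3 of 15, with an adjusted p of 0.0637 without HFD replicate 3. Rpe, an epimerase, was 0.19 higher (adjusted p = 0.0485) and lost its call under 9 of 15, with an adjusted p of 0.187 without HFD replicate 2. For HFD against ND, 3 of the 5 genes fell, where 27.7% of all genes were lower: Rpe by 0.56 (adjusted p = 2.82e-05), Tkt by 0.41 (adjusted p = 0.00182) and H6pd by 0.35 (adjusted p = 0.00135). For LU against ND, Rpe fell by 0.37 (adjusted p = 0.00133), and Pgls was 0.20 higher (adjusted p = 0.0207), with 0.06 and an adjusted p of 0.403 for the mean of its probes.

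Genes known to be induced by hypoxia outside glycolysis had mixed directions, with 3 higher and 2 lower for LU against HFD, 1 higher and 4 lower for HFD against ND, and 2 higher and 4 lower for LU against ND among 12 measured. Beside them, 19.7%, 25.2% and 21.1% of all genes were higher and 18.2%, 27.7% and 18.6% lower. Vegfa, the vascular growth factor, fell by 0.63 in HFD compared with ND (adjusted p = 0.00255) and was 0.69 higher in LU than in HFD (adjusted p = 0.00247). Car9, a carbonic anhydrase, fell by 0.38 in LU compared with HFD (adjusted p = 0.00033) and was not detected on any ND array, where HFD was at least 1.51-fold brighter than ND (adjusted p = 3.41e-07) and LU at least 1.16-fold brighter than ND (adjusted p = 0.000239). With neqc its change for LU against HFD was -0.82. Car9 passed the detection filter through the LU and HFD arrays alone, so its p-values against ND are not independent of that filter. This limit also covers its place among the genes counted as higher than ND, where it was the 1 gene counted for HFD. Adm, the vasodilator peptide adrenomedullin, fell by 0.39 in LU compared with HFD (adjusted p = 0.00332), and Ndrg1 fell by 0.64 in HFD compared with ND (adjusted p = 0.000133). In LU compared with ND, Egln3, a prolyl hydroxylase that acts on the hypoxia-inducible factor, fell by 0.43 (adjusted p = 0.0028, or -0.80 with neqc). Egln3 also fell by 0.59 in HFD compared with ND (adjusted p = 0.00017, or -1.15 with neqc). Its change of 0.16 for LU against HFD did not pass (adjusted p = 0.202). P4ha1, a collagen prolyl hydroxylase, fell by 0.37 in LU compared with ND (adjusted p = 0.0106, or -0.69 with neqc).

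The level of Pygl was also read relative to adipocyte markers, since the share of adipocyte RNA can differ between groups. Of 12 measured adipocyte markers, 7 rose and the other 5 did not pass in LU compared with HFD, and 1 rose and 8 fell in HFD compared with ND. A sum of their normalised signals gives most weight to the brightest probes, that of Lep among them. The sum over all 12 markers was 292400 to 297035 in LU, 264043 to 279908 in HFD and 281861 to 295152 in ND. Relative to the mean log2 signal of these markers on the same array, Pygl had 0.79, 0.69 and 0.70 in LU, 0.34, 0.45 and 0.57 in HFD and 1.21, 1.29 and 1.36 in ND. The groups kept the same order without overlap, with differences of 0.27 for LU against HFD, -0.83 for HFD against ND and -0.56 for LU against ND (exact two-sided permutation p = 0.1 each, the smallest possible). The adipocyte markers themselves changed by 0.25, -0.23 and 0.03 on average, and this scale was chosen after the values were seen. Single markers differed in direction: in HFD compared with ND, Lep was 0.68 higher and Lipe 0.51 lower. The mean of the markers therefore need not track the share of adipocytes. Fibroblast markers moved the other way, with 5 of 7 lower in LU than in HFD and 4 higher and 1 lower in HFD than in ND, and a summed signal of 63538 to 66779 in LU, 74454 to 77110 in HFD and 61737 to 71198 in ND. The summed signal of 7 measured vascular endothelial markers had the order of Pygl without overlap, at 52189 to 53272 in LU, 44571 to 52030 in HFD and 54143 to 57770 in ND. Of these markers, 1 was higher and the other 6 did not pass for LU against HFD. For HFD against ND, 3 were lower and the other 4 did not pass. For LU against ND, 1 was higher and 2 were lower. Beside these marker counts, 19.7% of all genes were higher and 18.2% lower for LU against HFD. The shares were 25.2% and 27.7% for HFD against ND, and 21.1% and 18.6% for LU against ND. The part of adipocytes, endothelial cells, fibroblasts and macrophages in the level of Pygl was not tested.

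Over the 9 arrays, the named genes whose pattern was most like that of Pygl were Catsper2 (Pearson r = 0.992), Gde1 (r = 0.991) and Ndufb8 (r = 0.990). Ndufb8, which belongs to complex I of the respiratory chain, fell by 0.44 in HFD compared with ND (adjusted p = 2.19e-05) and was 0.23 higher in LU than in HFD (adjusted p = 0.00431). For Pgk1 the closest genes were Ncaph2 (0.980), Gsdme (0.978) and Osbpl8 (0.976), and for Pgam1 they were Mest, Dcbld1 and Cops5 (0.959, 0.958 and 0.954). These correlations describe 9 arrays that fall into 3 diet groups and share their libraries. The genes were picked as the highest among the 8699 named genes after predicted transcripts were left out.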

How the data were processed

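The authors deposited probe signal intensities before normalisation, with a detection p-value per probe and array, for 45281 probes on 9 arrays, and a log2 table of 17128 probes that they had quantile-normalised and log-transformed. Intensities were quantile-normalised without background correction, and 20558 probes, those detected (p under 0.05) on 3 or more arrays, were fitted as log2 values with limma 3.58.1 in R 4.3.3, in 1 model of 3 groups without covariates. The fit was tested on simulated data. Genes were named from the platform annotation used here, which names 14264 probes with 1 gene, all within the authors' table. The 7 probes with several genes were left unnamed. The array number limits the precision. The members and lists were chosen with earlier results of these data known. Named are all members, up to 3 genes of each list with the largest change past the threshold in a comparison, and the 3 genes most like each member called for HFD against ND. Other list genes given, Gapdh and Pkm among them, and the pairs of enzymes of the same step were chosen after their values were seen. Signals of marker genes of adipocytes, macrophages, fibroblasts, vascular endothelium and red cells were summed per array. The alternatives were neqc, median scaling, the authors' table, fewer arrays, a replicate block, a trend, other filters, averaging all probes of each gene, the rank product (50 permutations) and the methods' t-test.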

Additional observations from a re-analysis of the deposited data

How the results depend on the processing

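Pygl kept its direction and its side of the threshold in all 3 comparisons under each of the 15 alternatives of the limma fit tried for it, with log2 fold changes of 0.45 to 0.63 for LU against HFD, -1.16 to -0.97 for HFD against ND and -0.59 to -0.48 for LU against ND. Read relative to the adipocyte markers, an alternative added after seeing the data, it gave 0.27, -0.83 and -0.56 (limma adjusted p = 0.00585, 2.37e-07 and 7.33e-05). Of 99 calls of other pathway genes, 37 were lost under at least 1 alternative of the limma fit. Among genes that did not pass, the LU against HFD change turned positive with median scaling for Pgk1 (0.012) and Pgam1 (0.018). Leaving out 1 array at a time, ranges that crossed zero were those of Hk1 for HFD against ND (-0.071 to 0.018), Pfkl for LU against HFD (-0.00127 to 0.056) and Pgam1 for LU against HFD (-0.092 to 0.011); the cause was not tested.

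The number of family genes called for LU against HFD was 2 when only the compared groups were fitted (Aldoa, 0.15, adjusted p = 0.0483, beside Pygl) and 2 with the methods' t-test unadjusted. With the rank product it was 1 for HFD against ND and 1 for LU against ND, and after Benjamini-Hochberg adjustment the methods' t-test also gave 1 in each. Leaving out 1 array gave 1 to 4 genes for HFD against ND (1 without ND replicate 2 or HFD replicate 2) and 1 to 3 for LU against ND (1 without LU replicate 3). The rank product called 915, 953 and 823 probes for LU against HFD, HFD against ND and LU against ND, against 5747, 7677 and 6137 with limma, and the methods' t-test after adjustment called 3750 for HFD against ND and 2079 for LU against ND.

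Arrays of the same replicate number did not deviate together (r = -0.0992 to 0.0872), which cannot show whether they were processed together. With the replicate number as a block, 1, 3 and 3 family genes were called and 5469, 7369 and 5834 probes passed, and no call of the family changed. The planned comparisons of Ldha with Ldhb and of Hk2 with Hk1 were not run, since Ldha, Ldhb and Hk2 had no named probe. Hk1 was detected on 2 of the 3 LU arrays, and with 3 arrays a group an exact permutation test of a single value cannot go below p = 0.1.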
